A study of Mus musculus with 6 samples.

Results

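The genes described here encode TGF beta and BMP ligands, the receptors of TGF beta, a protein that stores TGF beta in the matrix, and an inhibitory Smad. They were chosen by symbol, as probes to which the platform annotation gives exactly 1 gene symbol, and that symbol among Tgfb1, Tgfb2, Tgfb3, Tgfbr1, Tgfbr2, Ltbp1, Bmp2, Bmp4, Bmp7 and Smad7. Of these 10 genes, 9 had such a probe, 13 probes in all among the 34937 of the array. For Smad7, which encodes the feedback inhibitor of both pathways, no such probe was found, and it is not analysed here. Kidney RNA came from 3 homozygous mutant mice, labelled KO, and 3 wild-type mice, labelled WT, with 1 single-colour array per animal, so that the spread between arrays is biological and technical together. All 6 kidneys were rinsed with PBS through the vessels and frozen in liquid nitrogen. The labels name neither the mutated gene nor the strain, sex or age, so the targeted transcript could not be checked against the labels.

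TGF beta is secreted as a latent dimer, bound by its own propeptide and tethered to the matrix by latent TGF beta binding proteins. Once released, it assembles a type II and a type I receptor kinase, and the activated receptor phosphorylates Smad2 and Smad3, which move to the nucleus with Smad4. BMPs use other receptors of the same family and signal through Smad1, Smad5 and Smad9. In kidney, TGF beta is best known as a driver of matrix production in fibrosis, while Bmp7 is made by tubules and podocytes and is needed for nephron formation.

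Levels are given as multiples of the array median or as log2 of that ratio, and differences are mutant minus wild type in log2 units with the SE of the limma fit, or, for comparisons of probes within arrays, the SE pooled over the per-array values. The words rose and fell are kept for a Benjamini-Hochberg adjusted p under 0.05 over all 25834 tested probes, of which 5.39% passed. The low-signal limit, below which a probe could not be told from the dim bulk of the array, lay at 1.54 times the array median, or 0.62 log2. Levels of different probes are not comparable, so genes were set side by side only by their differences between genotypes. Sums over marker probes are compared between genotypes, not between lists.

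Tubule markers were checked against the labelled tissue. Of 9 proximal tubule markers 8 were above the limit on all 6 arrays, as were 4 of 4 summed markers of the thick limb and distal tubule. Among sex-linked probes, the brighter Xist probe was high and Eif2s3y at the floor on replicate 1 of both genotypes, with the reverse on replicates 2 and 3, so the genotypes were balanced in this respect. The second Xist probe was under the low-signal limit on every array with a value. Per array, 2.66% to 3.46% of values were at or under 0, and 37.3% to 41.5% exceeded the low-signal limit.

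The promoter window of Tgfb1, whose transcript rose in mutant kidney, is shown with that of Tgfb2, the isoform gene whose signal stayed near the low-signal limit. Both are RefSeq windows of GRCm38.p6, running from 250 bases before the annotated start to 50 after it, in lower case. Capitals mark the GC box GGGCGG on either strand in Tgfb1 (chr7:25686752-25687051, plus strand) and the motif TATAAA in Tgfb2 (chr1:186705940-186706239, minus strand).
Tgfb1: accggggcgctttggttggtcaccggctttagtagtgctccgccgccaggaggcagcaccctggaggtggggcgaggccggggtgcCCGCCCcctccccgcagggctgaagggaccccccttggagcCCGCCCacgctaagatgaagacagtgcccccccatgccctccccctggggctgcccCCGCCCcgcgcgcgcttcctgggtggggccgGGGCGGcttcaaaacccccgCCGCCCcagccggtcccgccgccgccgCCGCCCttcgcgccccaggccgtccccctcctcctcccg
Tgfb2: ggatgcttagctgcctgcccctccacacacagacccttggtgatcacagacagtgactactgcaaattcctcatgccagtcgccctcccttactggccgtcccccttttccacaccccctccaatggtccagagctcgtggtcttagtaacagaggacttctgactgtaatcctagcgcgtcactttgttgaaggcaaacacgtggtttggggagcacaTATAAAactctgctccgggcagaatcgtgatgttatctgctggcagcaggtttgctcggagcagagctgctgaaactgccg

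The Tgfb1 window held 6 GC boxes and no TATAAA, and the Tgfb2 window held 1 TATAAA and no GC box. Of 32851 promoter windows of the same length, 35.7% held at least 1 GC box, 1.35% held 6 or more, and 13.6% held TATAAA. The Smad palindrome GTCTAGAC, present in 0.213% of windows, was found in none of the 8 windows available for 6 of the genes. The shorter Smad-binding CAGA box, searched as CAGACA and present in 21.0% of windows, occurred once in the Tgfb2 window, once in 1 of the Tgfbr1 windows and at 2 places in 1 of the Ltbp1 windows. The AP-1 motif TGACTCA (5.20% of windows) was in none of the 8, and the cAMP response element TGACGTCA (1.79%) was in 1 of the Ltbp1 windows. Both strands were searched, and overlapping matches were counted separately. These matches describe letters in the window and were not tested for binding.

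Of the 9 genes on the array, 8 passed the filter on dim probes. With each gene at its brighter or only probe, the ligand genes Tgfb1, Tgfb3 and Bmp2 rose in mutant kidney. On these probes 0 of the 8 fell, also at an unadjusted p under 0.05 in limma. Over all 14817 genes tested, 5.67% rose and 1.59% fell. The median of the 8 differences was 0.85, against 0.08 over all genes. Ltbp1 enters it at 1.95, a difference with wild-type replicates 2 and 3 set to the floor. With wild-type values under the low-signal limit raised to it, Ltbp1 was 1.27-fold higher in mutants. The genes were chosen with earlier results of these data known, so their counts and median are not independent evidence. All 3 mutant arrays lay above all 3 wild-type arrays for 4 of the 8 genes, namely Tgfb1, Tgfb3, Bmp2 and Ltbp1, a pattern seen in 17.8% of all genes measured on 6 arrays. The opposite pattern, with all mutant arrays below, was seen in 0 of the 8 on these probes, against 8.89% of all genes. The second Bmp7 probe did show it, at an unadjusted p of 0.0032 in limma (adjusted p = 0.0564). In bulk tissue, more cells of a type and more RNA per cell cannot be told apart, nor can fewer cells and less RNA per cell.

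**Figure D1:**
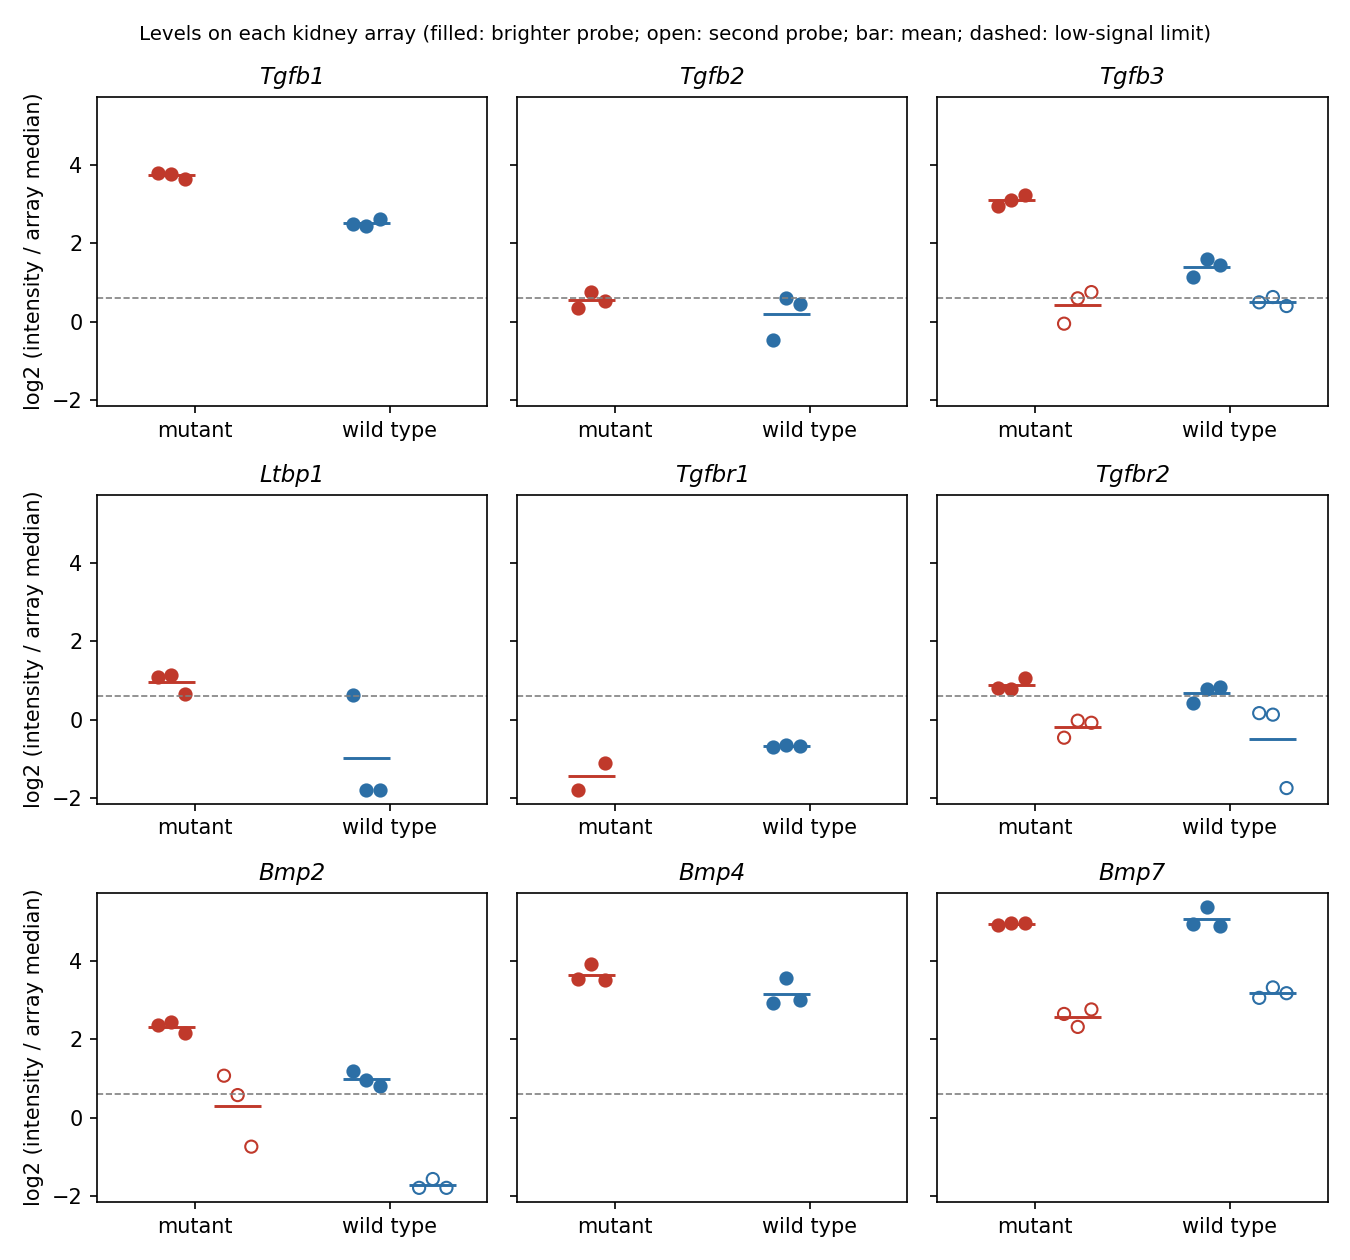
Level of each probe on each array, as log2 of intensity over the array median, for 3 mutant arrays (left, red) and 3 wild-type arrays (right, blue) in each panel. Filled points are the brighter probe of a gene, open points its second probe, short bars group means, and the dashed line is the low-signal limit of 0.62. The genotypes are separated for Tgfb1, Bmp2 and the brighter Tgfb3 probe, while the Tgfb2 and Tgfbr2 points of the genotypes overlap; Tgfbr1 has 2 mutant points because 1 value was negative.

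Among the TGF beta ligands, Tgfb1 encodes the isoform most studied in kidney fibrosis. Its probe read 13.9, 13.7 and 12.5 times the array median in the mutant kidneys, against 5.64, 5.49 and 6.15 times in wild-type kidneys. The 3 mutant values lay close together and well above the 3 wild-type values. On the log2 scale Tgfb1 averaged 3.74 ± 0.084 in mutants and 2.52 ± 0.085 in wild type (SD, n = 3 each), a rise of 1.22 ± 0.15 log2 units, or 2.32-fold (limma, adjusted p = 0.000187).

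Tgfb3, an isoform with a known role in palate fusion and wound repair, also rose. Its brighter probe read 7.78, 8.67 and 9.39 times the array median in mutant kidneys and 2.20, 3.04 and 2.74 times in wild-type kidneys. The groups did not overlap, and every wild-type value was above the low-signal limit. The rise was 1.70 ± 0.20 log2 units, or 3.26-fold (limma, adjusted p = 0.000131), which placed Tgfb3 101st by p and 254th by size of increase among the 14817 genes, with Tgfb1 at 122nd and 624th. The second Tgfb3 probe did not show this difference. It read 0.969, 1.52 and 1.69 times the array median in mutants and 1.41, 1.55 and 1.32 times in wild type, with overlapping groups around the low-signal limit and a difference of -0.07 ± 0.38 log2 units. Within arrays, the second probe minus the brighter one changed by -1.78 ± 0.21 log2 units between genotypes, with a two-sided exact permutation p of 0.10, the smallest possible. The Tgfb3 rise rests on 1 of 2 probes.

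Tgfb2, the third isoform gene, gave a signal near the low-signal limit. It read 1.28, 1.69 and 1.45 times the array median in mutants and 0.729, 1.52 and 1.36 times in wild type, and 1 mutant array and no wild-type array exceeded the limit. The difference of 0.35 ± 0.41 log2 units had a 95% interval of -0.53 to 1.23, so a change in either direction was not detectable at this signal.

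Compared within each array, the genotype difference of the brighter Tgfb3 probe was 0.49 ± 0.19 log2 units larger than that of Tgfb1, while that of the second Tgfb3 probe was the smaller. The brighter Tgfb3 probe minus Tgfb1 was higher on all 3 mutant arrays than on all 3 wild-type arrays. The two-sided exact permutation p was 0.10, the smallest that 3 against 3 arrays allow, and also 0.10 after adjustment over the 5 within-array comparisons made.

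**Figure D2:**
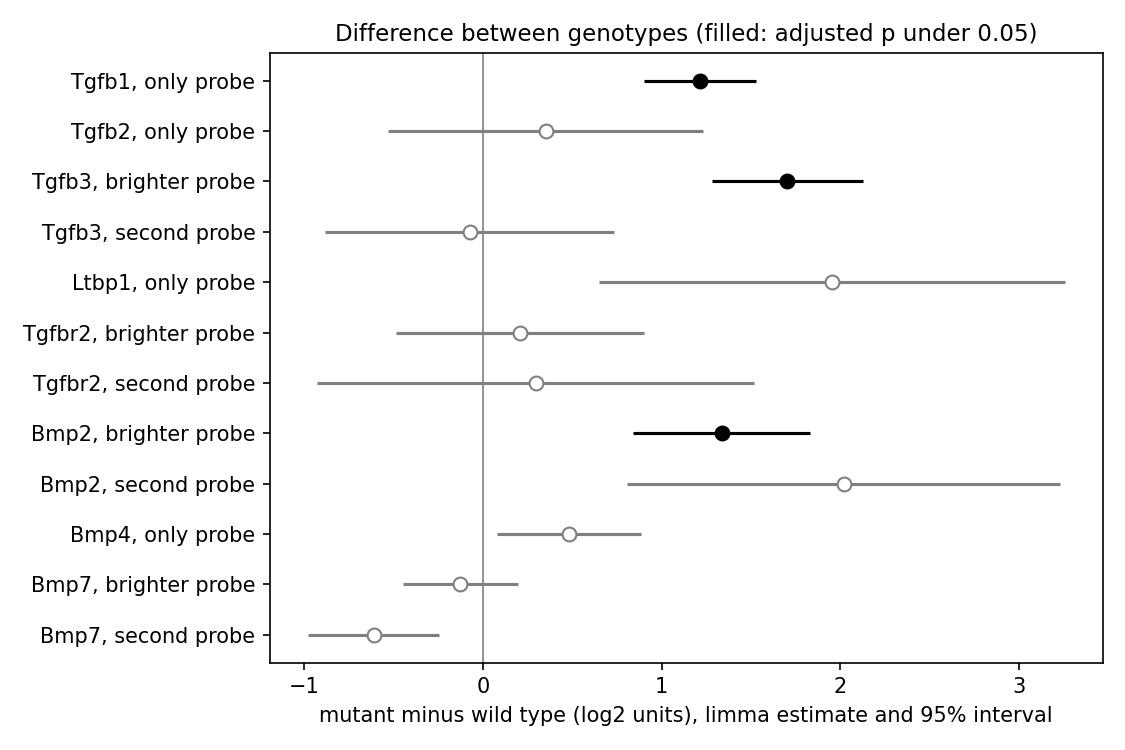
Mutant minus wild-type difference in log2 units for the 12 tested probes, as the limma estimate (point) with its 95% interval (line), n = 3 arrays per genotype. Filled points passed an adjusted p of 0.05: Tgfb1 at 1.22, the brighter Tgfb3 probe at 1.70 and the brighter Bmp2 probe at 1.34, whereas the second probes of Tgfb3 and Bmp7 lay at -0.07 and -0.61.

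Ltbp1 encodes the latent TGF beta binding protein that anchors the inactive ligand in the matrix. Its probe read 2.15, 2.21 and 1.58 times the array median in mutants, against 1.54, 0.0209 and 0.0964 times in wild type. All 3 mutant arrays were above the low-signal limit, whereas wild-type replicate 1 lay at the limit and replicates 2 and 3 far under it, where values were set to the floor. The fitted difference of 1.95 ± 0.61 log2 units did not pass (limma, adjusted p = 0.0898). With wild-type values under the limit raised to it, the fold between the group means was 1.27, a bound without a test of its own. Mutant replicate 3 at 1.58 times the array median lay close to wild-type replicate 1 at 1.54 times. Ltbp1 passed in 4 of 20 alternatives. These were the fit without wild-type replicate 1 (2.76 ± 0.47, adjusted p = 0.00533), that with only replicates 2 and 3 (adjusted p = 0.0322), array weights (adjusted p = 0.0148) and the replicate block (adjusted p = 0.0398), and the adjusted p ranged up to 0.269 in the others.

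Tgfbr2 encodes the receptor kinase that first binds TGF beta, and Tgfbr1 the partner it phosphorylates. The brighter Tgfbr2 probe read 1.77, 1.72 and 2.10 times the array median in mutants and 1.35, 1.72 and 1.78 times in wild type. The groups overlapped, and the difference of 0.21 ± 0.32 log2 units had a 95% interval of -0.48 to 0.90. The second Tgfbr2 probe was under the low-signal limit on all 6 arrays. The Tgfbr1 probe was too dim to pass the filter. It read 0.234, -0.288 and 0.468 times the array median in mutants and 0.617, 0.639 and 0.627 times in wild type, all under the low-signal limit, so no difference is given for it.

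Bmp2 encodes a BMP ligand that is also known as an inducer of bone formation. Its brighter probe read 5.17, 5.48 and 4.50 times the array median in mutants, against 2.28, 1.96 and 1.77 times in wild type. The groups were separated and all 6 values were above the low-signal limit. Bmp2 rose by 1.34 ± 0.23 log2 units, or 2.52-fold (limma, adjusted p = 0.00317), although with no intensity trend in the variance the adjusted p was 0.0513. The second probe lay under the limit on all 3 wild-type arrays and above it on 1 mutant array, so it gave no fold. Its fitted difference had the same direction, 2.02 ± 0.56, and did not pass (adjusted p = 0.0556), but passed without mutant replicate 3 (adjusted p = 0.0290) and with robust variance, array weights or the replicate block (adjusted p between 0.0403 and 0.0413).

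Bmp4, a BMP ligand that takes part in ureter and kidney outgrowth, read 11.6, 15.1 and 11.4 times the array median in mutants and 7.63, 11.8 and 8.08 times in wild type. Wild-type replicate 2 overlapped the mutant values, and the difference of 0.48 ± 0.19 log2 units did not pass (limma, adjusted p = 0.192). Without that replicate it was 0.68 ± 0.18 (adjusted p = 0.0492).

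Bmp7 had clear signal on 2 probes that gave different differences. The brighter probe read 30.3, 31.2 and 31.5 times the array median in mutants and 30.7, 42.0 and 30.0 times in wild type, a difference of -0.13 ± 0.15 log2 units with overlapping groups and a 95% interval of -0.45 to 0.20. The second probe read 6.28, 5.0 and 6.81 times the array median in mutants, against 8.35, 10.05 and 9.07 times in wild type. All mutant values of the second probe lay below all wild-type values, and its difference of -0.61 ± 0.17 log2 units did not pass (limma, adjusted p = 0.0564), but did in 5 of 19 alternatives. These were quantile normalization (-0.75, adjusted p = 0.0136), cyclic loess (-0.75, adjusted p = 0.0149), array weights (adjusted p = 0.0270), the replicate block (adjusted p = 0.0415) and robust variance (adjusted p = 0.0451). Within arrays the second probe minus the brighter one differed between genotypes by -0.49 ± 0.17 log2 units (two-sided exact permutation p = 0.10, the smallest possible).

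Bmp2 was set against the other BMP ligand genes in the same way. Within arrays, Bmp2 minus Bmp7 on the brighter probes was higher in mutants by 1.46 ± 0.21 log2 units, and Bmp2 minus Bmp4 by 0.85 ± 0.26. For both, every mutant array exceeded every wild-type array, and the two-sided exact permutation p was 0.10, the smallest that 3 against 3 arrays allow.

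**Figure D3:**
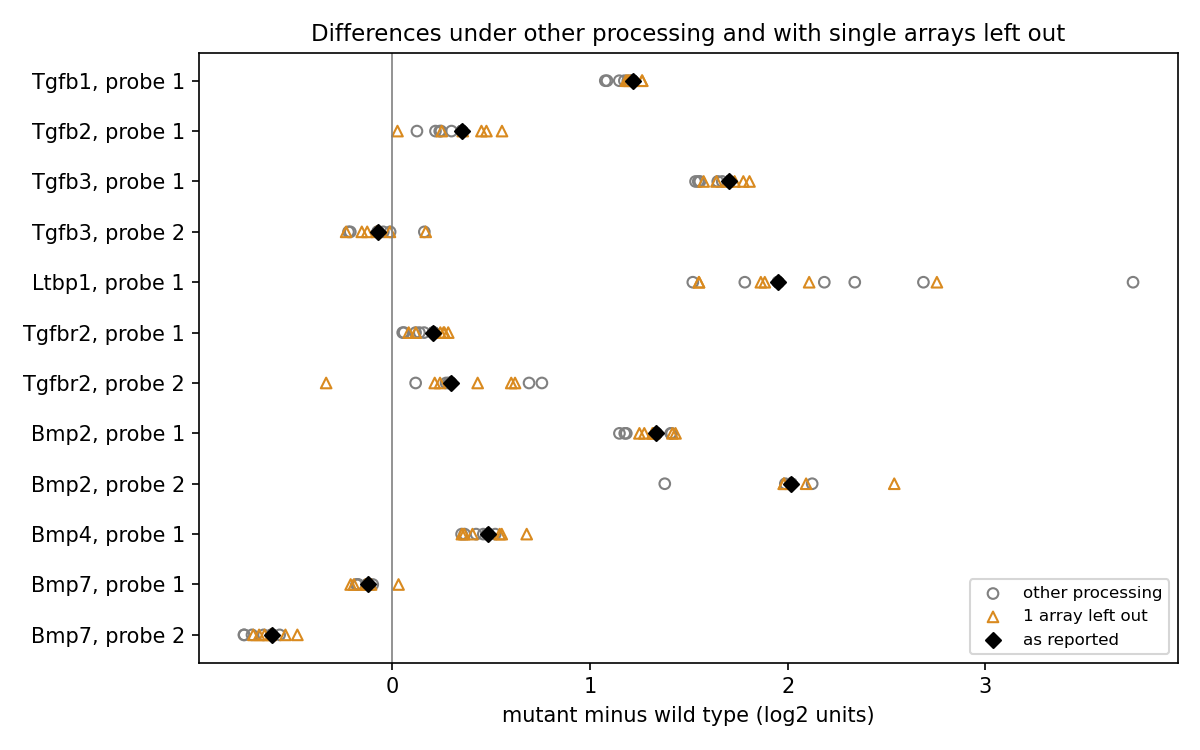
Mutant minus wild-type difference in log2 units for each tested probe (rows) as reported (black diamond), under other processing (grey circles) and with single arrays left out (orange triangles). Tgfb1 and the brighter probes of Tgfb3 and Bmp2 keep to a narrow range right of 0, Ltbp1 runs from 1.52 to 3.75, and the second Tgfb3 probe, the second Tgfbr2 probe and the brighter Bmp7 probe reach both sides of 0.

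Marker genes of other cell types were measured beside Tgfb1, Tgfb3 and Bmp2. The summed level of a list is led by its brightest probes and does not measure a number of cells. The brightest were Miox among proximal tubule markers (mean 9.41 log2 in wild type) and Col3a1 among fibroblast, pericyte and smooth muscle markers (7.82 log2 in mutants). For the counts below, 5.67% of all genes tested rose and 1.59% fell, and 8.16% rose of those with a mean above the limit. Of 11 tested fibroblast, pericyte and smooth muscle markers 9 rose, and their summed level was 480 to 509 times the array median in mutants and 140 to 175 times in wild type. Of 10 tested macrophage and myeloid markers 8 rose, with a sum of 263 to 390 times in mutants and 55.4 to 67.1 times in wild type, while Adgre1 and Itgam, defining markers of macrophages, were under the low-signal limit on all 6 arrays. Of 9 tested lymphocyte markers 2 rose, Ighm and Cd3d, with a sum of 24.7 to 36.7 times in mutants and 15.6 to 17.5 times in wild type, and the B cell marker Ms4a1 was under the limit on all arrays. The 2 other tested Ighm probes were higher in mutants but did not pass in limma (adjusted p = 0.258 and 0.0718). Of 9 tested proximal tubule markers 5 fell, with a sum of 558 to 628 times in mutants and 1050 to 1196 times in wild type. Markers of thick limb and distal tubule, collecting duct, podocyte and erythroid cells passed in 0 of 4, 5, 3 and 2 tested. Their sums overlapped between genotypes, at 504 to 624 times in mutants and 432 to 567 times in wild type for the first. For collecting duct the ranges were 26.1 to 29.2 and 23.1 to 31.1, and for podocyte 14.8 to 16.4 and 15.3 to 18.5. Erythroid markers gave 1.67 to 10.3 and 7.58 to 14.5, with 1 lower at an unadjusted p under 0.05 in limma. Of 5 platelet markers 0 passed in limma (2 higher at an unadjusted p under 0.05), with a sum of 4.49 to 5.45 times in mutants and 4.02 to 4.90 times in wild type, and Itga2b, Gp9 and Gp1bb were under the limit on every array. The counts of 0 are near the shares over all genes and are no result about those cell types. The part of these cells in the ligand differences was not tested.

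The genes whose levels over the 6 arrays were most like those of Tgfb3, the member with the smallest p, were Eva1b, with a Pearson r of 0.998, and Mmp2 and Grn, with 0.997 each, among 13469 genes compared. Mmp2 encodes a gelatinase that can release latent TGF beta, and Grn encodes the growth factor precursor progranulin. These arrays form 2 groups, so each r covers the step between genotypes as well as the spread within them, and it is given as a description.

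Beyond the chosen genes, 132 further genes of the pathway were listed in 7 groups, of which 110 were tested, 29 rose and 0 fell in limma. Over all genes tested, 5.67% rose and 1.59% fell, and 8.16% rose of those with a mean above the limit. The lists were drawn up with earlier results of these data known, so the counts per group are not independent evidence. Genes of latency and activation, which hold the ligand inactive or free it, rose in 8 of 13 tested, with 0 lower (also 0 at an unadjusted p under 0.05) and a median of 0.95 log2 units. Ltbp4, a binding protein for latent TGF beta 1, rose by 1.14 ± 0.15 and Ltbp3, which binds latent TGF beta as well, by 0.98 ± 0.16 log2 units. The metalloproteinase genes Mmp14 and Mmp2 rose by 1.93 ± 0.17 and 1.83 ± 0.22. Itgb6, a subunit of the integrin that activates latent TGF beta on epithelia, was singled out after its values were seen and differed by 0.06 ± 0.23, with a 95% interval of -0.43 to 0.55. With no intensity trend in the variance 2 genes of this group rose, Mmp14 and Mmp2.

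Among receptors and Smads the counts were near the 5.67% of all genes that rose, and are no result about these groups. Of 14 other receptors and co-receptors tested, 1 rose and 0 fell in limma (3 and 1 at an unadjusted p under 0.05). The gene was Acvrl1, a type I receptor known from endothelium, with 3.10, 3.14 and 2.95 log2 in mutants and 2.17, 2.46 and 2.13 log2 in wild type. It rose by 0.81 ± 0.17 log2 units (adjusted p = 0.0120), with adjusted p between 0.0504 and 0.0733 without mutant replicate 1 or 2 or wild-type replicate 3, and 0.137 with no intensity trend. Endothelial markers rose in 1 of 6 tested (5 higher at an unadjusted p under 0.05), and their sum was 72.3 to 86.3 times the array median in mutants and 58.5 to 65.5 times in wild type, with Cdh5 and Flt1 under the limit on all arrays. The part of endothelial RNA in the Acvrl1 difference was not tested.

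Of 20 Smads and intracellular regulators 1 rose and 0 fell (5 and 0 at an unadjusted p under 0.05), with a median of 0.18 log2 units, or 0.11 where genes under the limit in a genotype stood at their bound. It was Tgif1, a homeodomain repressor that binds Smads, at 3.03 and 2.47 log2 on the 2 mutant arrays with a value and 1.14, 1.89 and 1.43 log2 in wild type. It rose by 1.26 ± 0.28 log2 units (adjusted p = 0.0194), but leaving out wild-type replicate 3 gave an adjusted p of 0.0565 and a variance with no intensity trend 0.190. Smad2, a signal carrier of TGF beta singled out after its values were seen, differed by 0.27 ± 0.21 log2 units, and Smad1, a carrier of BMP signals, by 0.13 ± 0.31.

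Of 18 other ligands of the superfamily 0 rose and 0 fell in limma (1 each at an unadjusted p under 0.05), and 16 of them lay under the low-signal limit on all arrays of a genotype. Beside the 5.67% of all genes that rose and 1.59% that fell, these counts are no result about the group. The ligand with the smallest p was Gdf10, at 1.52, 0.76 and 1.41 log2 in mutants and 0.20, -0.21 and -1.67 log2 in wild type (adjusted p = 0.0546). Bmp6, a ligand with clear signal on every array, differed by 0.12 ± 0.19 log2 units. Both were named after their values were seen.

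Secreted antagonists and modulators rose in 3 of 19 tested, against 5.67% of all genes, with 0 lower, also at an unadjusted p under 0.05. They were the matrix proteoglycan genes Bgn (2.29 ± 0.21 log2 units) and Dcn (1.93 ± 0.18), whose products can bind TGF beta, and Nbl1, a BMP antagonist (1.42 ± 0.35, adjusted p = 0.0296). Dcn is also among the fibroblast, pericyte and smooth muscle markers above, and the part of those cells was not tested. Nbl1 did not pass without any 1 mutant array or without wild-type replicate 3, with adjusted p between 0.0575 and 0.134, nor after quantile normalization (0.0696) or cyclic loess (0.0669), with only replicates 2 and 3 (0.101) or with no intensity trend (0.166). The median of the group was 0.39 log2 units, or 0 with bounds, and 11 of 19 lay under the limit in a genotype. Sostdc1, a BMP antagonist of the distal tubule singled out after its values were seen, differed by -0.17 ± 0.17.

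**Figure D4:**
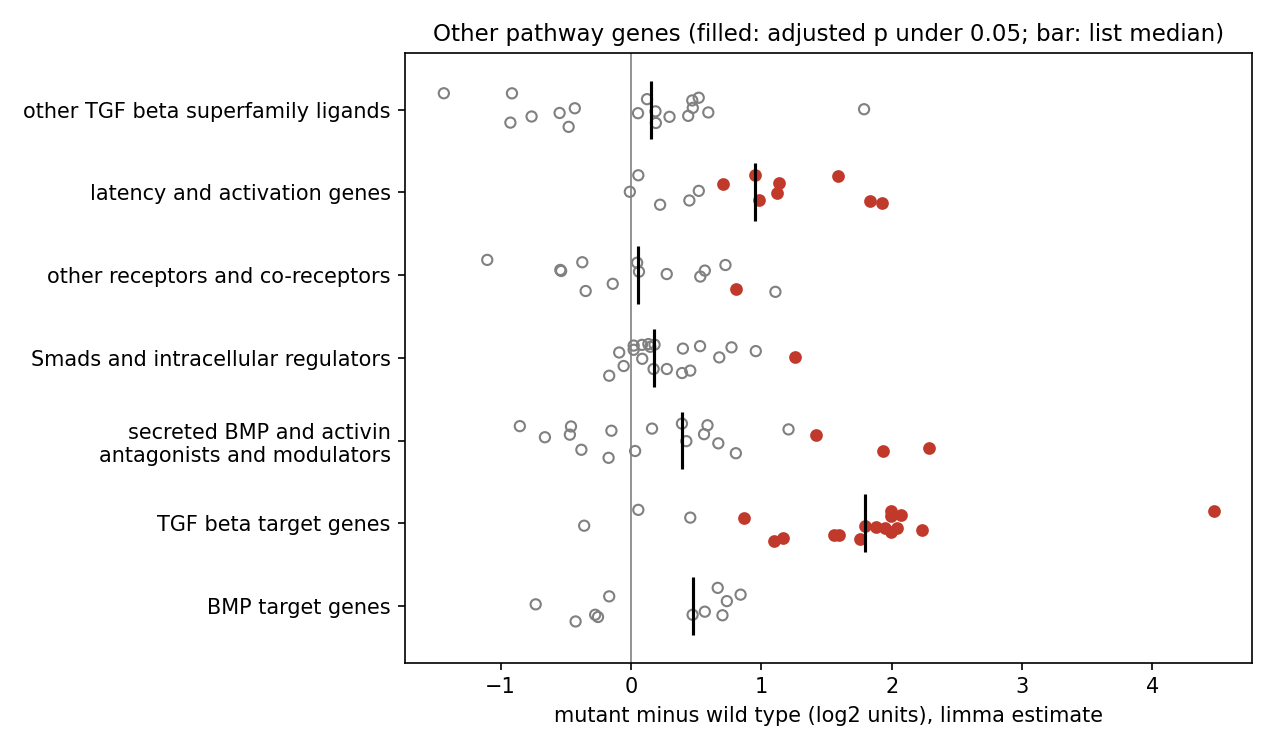
Mutant minus wild-type difference in log2 units (limma estimate) for the tested genes of 7 further pathway groups, with filled red points past an adjusted p of 0.05, open grey points not past it, and black bars at the median of each group. TGF beta target genes (16 of 19 filled) and latency genes (8 of 13) lie to the right, and BMP target genes (0 of 11) lie on both sides of 0. Over all genes tested, 5.67% rose.

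Genes known to be induced by TGF beta rose in 16 of 19 tested and fell in 0, also 0 at an unadjusted p under 0.05. The fit without an intensity trend gave 9 that rose. Their median was 1.80 log2 units, or 1.24 with the 6 genes under the low-signal limit in a genotype at their bound. Against the 5.67% of all genes that rose, and 8.16% of those with a mean above the limit, this is a high share, but many of the listed genes encode matrix and had been seen to rise before the list was drawn up, so the count is not independent evidence of its direction. Fn1, which encodes fibronectin, was at 5.92, 5.76 and 5.82 log2 in mutants and 3.93, 3.86 and 3.73 log2 in wild type. Tagln, an actin-binding protein of smooth muscle, rose by 1.76 ± 0.14 log2 units, and the intermediate filament gene Vim by 1.60 ± 0.14. Timp1, an inhibitor of matrix metalloproteinases, was under the limit on all wild-type arrays and at least 9.65-fold higher in mutants. The 3 tested genes that did not pass were Pmepa1, a negative regulator of TGF beta signalling (0.45 ± 0.19), Itgb6, and Junb, under the limit on all arrays. Several of these genes are also markers of fibroblasts and smooth muscle, whose summed level is given above, and the part of those cells was not tested.

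Genes known to be induced by BMP rose in 0 of 11 tested and fell in 0 in limma, with 3 higher and 1 lower at an unadjusted p under 0.05. Over all genes tested 5.67% rose and 1.59% fell, so counts of 0 among 11 are near these shares and no result about the group. The Id genes encode inhibitors of basic helix-loop-helix factors and respond directly to BMP, and they are named as a family after their values were seen. Id3 was at 4.86, 5.44 and 4.46 log2 in mutants and 4.01, 4.49 and 4.05 log2 in wild type, with overlap in 1 wild-type array and a difference of 0.74 ± 0.21 that did not pass (adjusted p = 0.0682). Id1 differed by -0.43 ± 0.41, Id2 by -0.25 ± 0.17 and Id4 by -0.27 ± 0.30 log2 units, all with overlapping groups. The difference in counts between TGF beta and BMP target genes was not tested.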

How the data were processed

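The intensity values were background-subtracted and scaled by the authors before they were deposited. This is read from the values, which ran from -1.02 to 951 with array medians just under 1. Software, background method and scaling remain not given in the sources used here. CodeLink arrays and biotin-labelled cRNA are per the labels' protocols.

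After division by the median of its array, a value of 0 or less was left out, and the lowest 10% of positive values were raised to a floor of 0.290 before taking log2. Probes needed a value on 2 arrays of each genotype (34445 did), and the dimmest 25% were left out, which left 25834. The comparison used limma 3.58.1 under R 4.3.3 (lmFit, eBayes with an intensity trend, two-sided, Benjamini-Hochberg), and the code was tested on simulated data. Per gene, the probe with the highest mean over 6 arrays stood for it. Annotation gave 21590 probes 1 symbol, 681 several and 12666 none. The low-signal limit is the mode of the linear values (0.535) plus 3 times the spread below it (0.334). At-least folds use the higher of limit and value on the dim side. Named genes are all 10 members, up to 4 genes per group by smallest p among those past the threshold with separated groups, and others where said. The members and lists were chosen with earlier results of these data known. The number of arrays limits the precision.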

Additional observations from a re-analysis of the deposited data

How the results depend on the processing

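Tgfb1 and Tgfb3 (brighter probe) kept their direction and call in all 20 alternatives each, with differences of 1.08 to 1.26 and 1.53 to 1.81, and Bmp2 in 19 of 20, the exception being the fit with no intensity trend. The highest adjusted p in limma was 0.0481 for Tgfb1, 0.0369 for Tgfb3 and 0.0513 for Bmp2. The alternative that takes the probe with the smallest p uses the same probe for these genes, so its agreement was fixed in advance. The number of members past the threshold was between 2 and 4, and 3 or 4 without 1 array. Directions reversed for members that had not passed: the second Tgfb3 probe with only replicates 2 and 3 (0.16) and without mutant replicate 1 (0.17; range without 1 array -0.23 to 0.17), the second Tgfbr2 probe without wild-type replicate 3 (range -0.34 to 0.62), and the brighter Bmp7 probe without wild-type replicate 2 (range -0.21 to 0.031). Same-numbered arrays of the genotypes had deviations correlated at 0.072, 0.020 and 0.070, so the numbers were not taken to pair the samples. Each mutant array correlated best with its own number, and the replicate 1 arrays of both genotypes also share the sex-linked pattern. With the replicate number as a block, 1856 probes passed against 1392, and Ltbp1 did (adjusted p = 0.0398). The block gave 1 other ligand, 2 Smads and regulators and 1 BMP target higher.

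Probes past the threshold numbered 191 with no intensity trend, 912 with only replicates 2 and 3, and 742 to 1230 without 1 array, lowest without mutant replicate 2 and 881 without mutant replicate 1. Calls were 76.4% higher in mutants as reported, 61.5% after quantile normalization and 62.9% after cyclic loess. When the variance had no intensity trend, pathway genes past the threshold numbered 14 against 29, latency genes higher 2, TGF beta targets higher 9, receptors 0, Smads and regulators 0, and 1 other ligand was lower. Without 1 array these counts were 21 to 28 for all pathway genes, 6 to 8, 12 to 14, 0 to 1 for receptors and 0 to 2 for Smads and regulators. Other ligands higher numbered 1 with a pseudocount of 0.5, robust variance or array weights, and 0 to 1 without 1 array. Receptors and Smads higher numbered 0 with only replicates 2 and 3. Smads and regulators numbered 0 with a value required on all 6 arrays and 2 with array weights. BMP targets higher numbered 1 with no filter on dim probes or array weights, and 0 to 1 without 1 array. The causes were not tested. With 1 array left out a genotype has 2 arrays. Members near the low-signal limit (Tgfb2, Tgfbr1, Tgfbr2, Ltbp1 in wild type) were limited by signal over background.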
